A study of Mus musculus with 6 samples.

Results

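MHC class I antigen presentation was followed through 10 genes, H2-K1, H2-D1, B2m, Tap1, Tap2, Tapbp, Psmb8, Psmb9, Psmb10 and Nlrc5, in 1G11-mock and 1G11-SOD3 cells. The members were all non-control spots whose annotation on the array named one of these genes, which gave 32 spots of 13 probes, for 10 of the 22204 genes that could be named on the 59305 spots. The choice of members used no expression value. The split of their spots by place, described below, followed the dim reading of 1 block in the 1G11-mock samples. Another 2 probes, designed on a sequence annotated as similar to H2-D1 on chromosome 13, are given apart and were not counted as members. 1G11 is a line of mouse microvascular endothelial cells, of strain C57BL/6NCrLBR per the labels. The 1G11-SOD3 line overexpresses Sod3, the extracellular superoxide dismutase that removes superoxide outside the cell, and 1G11-mock is the line without it. Before total RNA was taken, both lines were exposed for 6 h to conditioned medium of N202.1A, a mouse mammary cancer cell line. The RNA of 3 biological replicates per line was hybridized to Agilent SurePrint Mouse G3 arrays, 1 sample on each and in 1 color. Whether the 1G11-SOD3 line is a single clone is not given in the sources used here, and the study has 1 line of each kind.

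MHC class I molecules display peptides from the inside of the cell to CD8+ T cells. Proteins are cut by the proteasome, whose inducible subunits Psmb8, Psmb9 and Psmb10 replace the constitutive catalytic subunits to form the immunoproteasome. Tap1 and Tap2 form the transporter that carries the peptides into the endoplasmic reticulum, where Tapbp, or tapasin, holds the transporter next to empty class I molecules. There a peptide joins a heavy chain, such as those encoded by H2-K1 and H2-D1, and the light chain B2m, and the complex travels to the cell surface. Nlrc5 is the transactivator of class I genes and acts at a conserved group of promoter elements, while NF-κB and interferon regulatory factors act at neighboring elements. In endothelium these genes are expressed at rest and rise with interferons and tumor necrosis factor.

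The sequences shown are of 2 kinds. The first are probes of H2-K1 and of H2-T23, a nonclassical heavy chain, because both probes gave a lower signal in 1G11-SOD3 cells and share a run of 29 bases, set in capitals. Signal from one transcript on the probe of the other was not tested.
H2-K1 probe A_55_P2049647: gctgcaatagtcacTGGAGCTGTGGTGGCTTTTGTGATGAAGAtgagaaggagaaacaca
H2-T23 probe A_51_P237754: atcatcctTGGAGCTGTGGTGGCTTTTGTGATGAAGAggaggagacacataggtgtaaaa
The second are the 250 bases before the transcription start of 4 class I genes whose probes outside the middle of the array did not overlap between the lines, taken from RefSeq (GRCm38.p6). Capitals mark an NF-κB-type sequence (GGGATTCCC or GGACTTTCC, either strand) and, in the heavy chains, an interferon-response-type sequence (GAANNGAAA, either strand), and no such runs overlapped.
H2-K1, minus strand, chr17:34000334-34000583: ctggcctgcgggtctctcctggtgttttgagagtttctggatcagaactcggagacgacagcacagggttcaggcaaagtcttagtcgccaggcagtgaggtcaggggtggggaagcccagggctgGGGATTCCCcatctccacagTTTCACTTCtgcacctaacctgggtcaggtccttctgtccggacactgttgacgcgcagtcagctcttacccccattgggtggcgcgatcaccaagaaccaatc
H2-D1, plus strand, chr17:35262844-35263093: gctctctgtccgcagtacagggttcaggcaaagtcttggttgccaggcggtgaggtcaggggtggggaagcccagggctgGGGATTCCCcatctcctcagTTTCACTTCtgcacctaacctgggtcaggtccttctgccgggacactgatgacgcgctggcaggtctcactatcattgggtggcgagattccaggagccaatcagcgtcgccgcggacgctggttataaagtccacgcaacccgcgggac
H2-Q7, plus strand, chr17:35438905-35439154: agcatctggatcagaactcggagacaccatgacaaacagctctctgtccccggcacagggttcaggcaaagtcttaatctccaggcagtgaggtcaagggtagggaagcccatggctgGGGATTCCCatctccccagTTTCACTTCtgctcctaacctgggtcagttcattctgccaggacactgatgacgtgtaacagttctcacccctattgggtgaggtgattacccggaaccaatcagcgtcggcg
B2m, plus strand, chr2:122147437-122147686: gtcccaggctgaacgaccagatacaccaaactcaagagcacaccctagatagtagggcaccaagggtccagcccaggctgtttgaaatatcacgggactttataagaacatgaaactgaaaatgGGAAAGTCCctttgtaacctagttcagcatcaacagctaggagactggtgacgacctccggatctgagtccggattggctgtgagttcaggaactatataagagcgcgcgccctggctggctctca
In H2-K1 and H2-D1 the same GGGATTCCC stood 11 bases before the same TTTCACTTC, and in H2-Q7 the spacing was 10 bases. GGGATTCCC was present in 0.353% of the 32851 promoter windows of 300 bases (250 before and 50 after the start), GGACTTTCC in 0.344% and GAANNGAAA in 7.52%. Of the 8 members with a window, H2-K1 and H2-D1 held both types, and of these 3 sequences B2m held GGACTTTCC alone. There was no match for the 3 in Tap1, Tapbp, Psmb8, Psmb9 or Psmb10. The search took GAANNGAAA letter for letter and looked for no longer spacing. The B2m sequence above holds such a longer form, gaaactgaaa, shortly before its capitals, so a lack of interferon-response-type sequences in B2m is not shown. The windows of Tap1 and Psmb9, which are read in opposite directions, overlapped by 275 bases. Among the heavy chains named below, H2-Q10 held TTTCACTTC without either NF-κB-type sequence, and H2-Q2 and H2-T23 held none of the 3. These matches describe the letters of the windows and are no evidence of binding.

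A rectangular block in the center of the arrays, called the middle here and holding 6606 of the 59305 spots, read dim in the 1G11-mock samples. Probes with copies in the middle were therefore averaged apart from those outside it. The rows numbered 55961, each being 1 probe in 1 place, and a row was called where limma gave a change above 2-fold with adjusted p below 0.05. Of the rows in the middle, 11.9% were called higher in 1G11-SOD3 cells and 0.0622% lower, against 0.66% and 1.2% outside the middle. All 1G11-mock samples were placed in slide row 2 and all 1G11-SOD3 samples in slide row 1, and the effects of slide row and cell line cannot be told apart. The scanner software marked 34.2% to 43.8% of the spots of an array as well above background and none as saturated. Sod3 itself, measured in the middle, was 19.2-fold higher in 1G11-SOD3 cells (adjusted p = 0.00763 by limma), with every 1G11-SOD3 array above every 1G11-mock array. With bulk RNA, fewer expressing cells and less RNA per cell cannot be told apart.

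All 9 member probes that lay outside the middle and were well above background on the 6 arrays had a lower mean in 1G11-SOD3 cells. Their log2 fold changes (1G11-SOD3 minus 1G11-mock) had a median of -0.78, beside a median of -0.17 over all 15248 such probes, of which 64.4% were below 0. In 6 of the 9 probes the lines did not overlap, with every 1G11-SOD3 array below every 1G11-mock array, beside 20.8% of all such probes. Of the 12 member probes outside the middle, 2 were called lower, against 1.2% of all rows there, and 0 higher, against 0.66%. These were the Nlrc5 probe A_55_P2016034 and the H2-K1 probe A_55_P2049647, the former having been well above background on the 1G11-mock arrays alone. With dim probes left out, 3 of 10 member probes were called lower, beside 646 of 17659 rows outside the middle. That filter kept a row that was well above background on all arrays of either line. The probes called were both H2-K1 probes and the Nlrc5 probe, which passed the filter through its 1G11-mock arrays alone. The array of 1G11-SOD3 replicate 3 was the lowest of the 6 in 9 of the 10 member probes that were detected outside the middle, with B2m as the exception, while it was the lowest in 25.1% of all probes well above background there. Without that array the median of the 9 probes was -0.68, beside -0.16 for all such probes, and all 9 remained below 0.

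**Figure D1:**
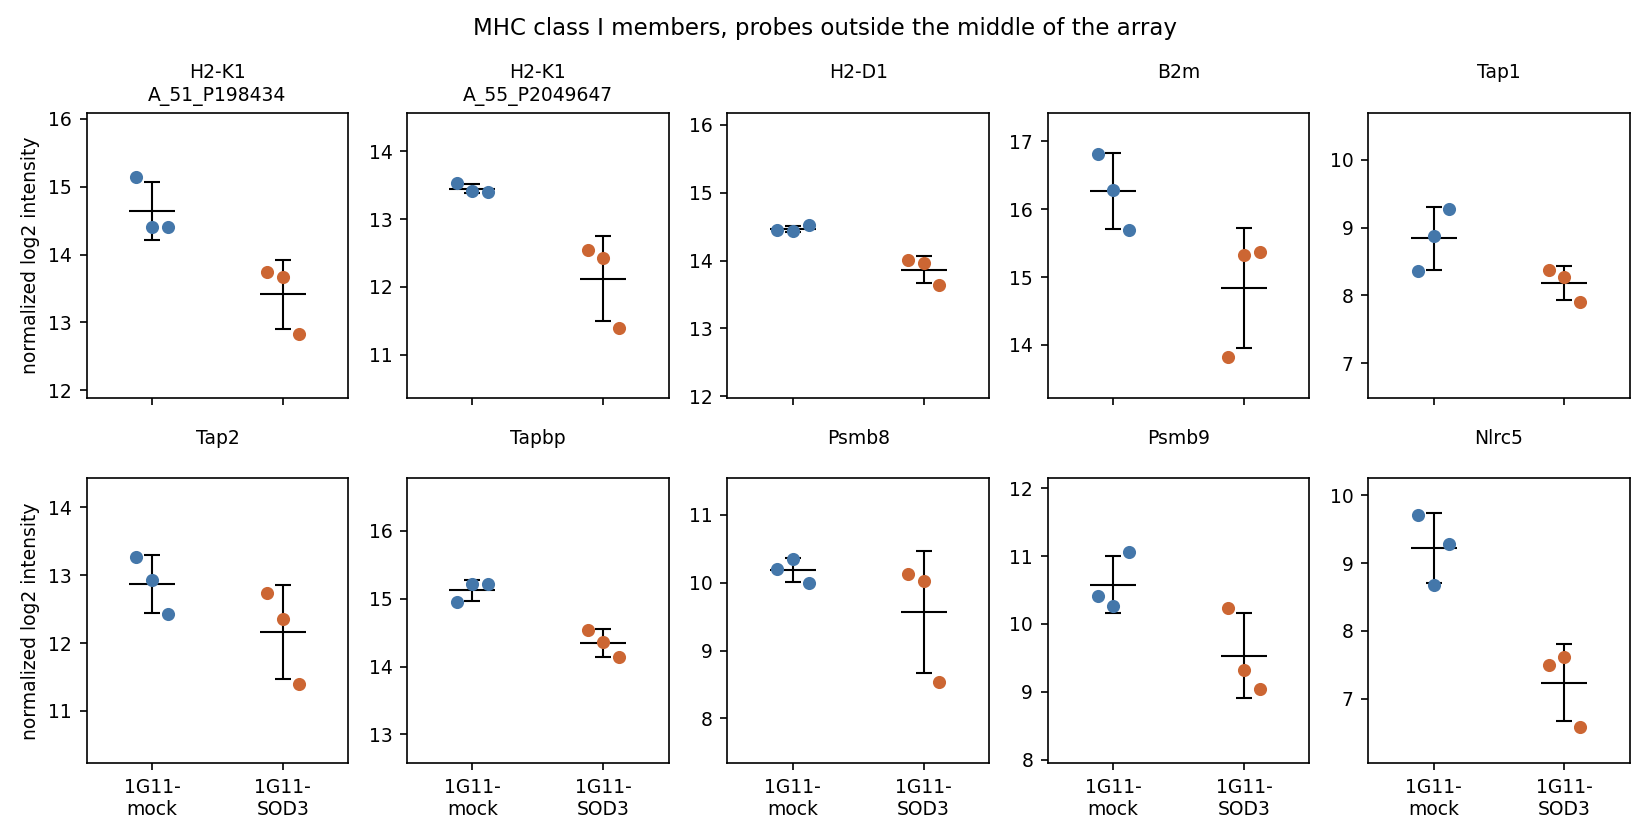
Normalized log2 intensity of each member probe outside the middle of the array that was well above background in at least one line, on 3 1G11-mock (blue) and 3 1G11-SOD3 (orange) arrays, with mean and SD; all panels span the same number of log2 units. The lines overlap in Tap1, Tap2 and Psmb8, and the 1G11-SOD3 arrays lie below the 1G11-mock arrays in the other panels.

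H2-K1 encodes the classical heavy chain K and was measured by 2 probes, of which A_51_P198434 was printed 10 times, all outside the middle (chr17:34133055-34133114, minus strand, in the array annotation, whose build is not given). Its log2 intensity was 15.14, 14.40 and 14.40 in 1G11-mock replicates 1, 2 and 3, and 13.74, 13.66 and 12.83 in the 1G11-SOD3 replicates. The lines did not overlap, and 1G11-mock replicate 1 and 1G11-SOD3 replicate 3 stood at the ends. The difference was a log2 fold change of -1.24 (SE 0.31, n = 3 arrays per line), and each of the 10 copies was lower in 1G11-SOD3 cells, between -1.75 and -0.98. At an adjusted p of 0.0562 (limma) it fell short of the threshold, which it passed with the replicate number as a block (adjusted p = 0.0170).

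The other H2-K1 probe, A_55_P2049647 (chr17:34133984-34134043, minus strand), carries the run shared with H2-T23 that is shown above. It read 13.53, 13.42 and 13.40 in 1G11-mock and 12.54, 12.43 and 11.40 in 1G11-SOD3 cells, with a wide gap between the lines and 1G11-SOD3 replicate 3 lowest. It was 2.51-fold lower in 1G11-SOD3 cells (log2 fold change -1.33, SE 0.30, adjusted p = 0.0373 by limma). The call held without 1G11-SOD3 replicate 1 and was lost when any other array was left out. The log2 fold change was then -1.29 (adjusted p = 0.0871) without 1G11-mock replicate 1, -1.35 (0.118) without 1G11-mock replicate 2 and -1.35 (0.0869) without 1G11-mock replicate 3. It was -1.48 (0.0554) without 1G11-SOD3 replicate 2 and -0.97 (0.0946) without 1G11-SOD3 replicate 3.

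H2-D1 encodes the classical heavy chain D, and its probe lay at chr17:35403886-35403945 on the plus strand. It read 14.44, 14.44 and 14.52 in 1G11-mock cells and 14.01, 13.96 and 13.63 in 1G11-SOD3 cells. The SD of the 1G11-mock arrays was 0.04 and all of them stood above the 1G11-SOD3 arrays, but the log2 fold change of -0.60 (SE 0.22, adjusted p = 0.216 by limma) did not pass the test. The probe sat where 1G11-SOD3 arrays read brighter than 1G11-mock arrays by 0.74 on the log2 scale, as estimated from neighboring spots. With that surface taken off, the log2 fold change was -0.92 (adjusted p = 0.0336), still under 2-fold. Of the 2 probes similar to H2-D1 on chromosome 13, the log2 fold changes were -0.01 and -0.22 (adjusted p = 0.995 and 0.797).

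B2m encodes β2-microglobulin, the light chain shared by all these heavy chains, and one probe sequence (chr2:121978401-121978460, plus strand) was printed once outside and once in the middle. Outside the middle it read 16.82, 16.29 and 15.69 in 1G11-mock and 13.82, 15.33 and 15.36 in 1G11-SOD3 cells, so that the lines did not overlap but 1G11-SOD3 replicate 1 stood far below the other two. The log2 fold change was -1.43 (SE 0.41, adjusted p = 0.105 by limma), and -0.92 without that array. In the middle the same sequence read 13.56, 11.63 and 11.35 in 1G11-mock and 15.23, 14.95 and 15.17 in 1G11-SOD3 cells. There it was called 7.65-fold higher in 1G11-SOD3 cells (adjusted p = 0.00615), the only one of the 3 members with a copy in the middle to be called, against 11.9% of all rows there, and the surface estimated from neighboring spots differed by 3.07 between the lines in the same direction. With the surface taken off, the middle copy stood at 0.26 (log2 fold change, adjusted p = 0.690) and the outside copy at -1.19 (adjusted p = 0.0786). The middle copy minus the outside copy was between -4.66 and -3.26 on the log2 scale on the 1G11-mock arrays and between -0.38 and 1.41 on the 1G11-SOD3 arrays.

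**Figure D2:**
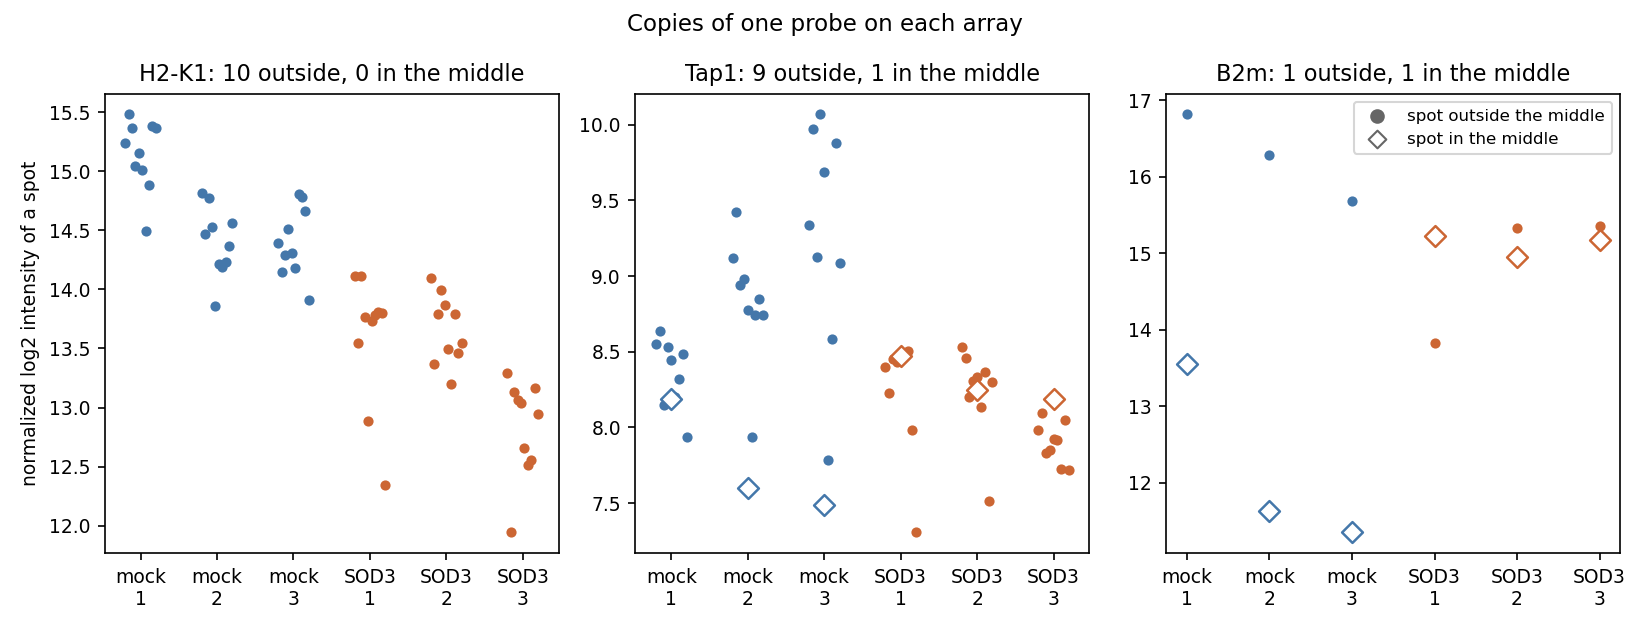
Normalized log2 intensity of every spot of 3 probes on each array, with filled circles outside the middle and open diamonds in the middle; spots marked as outliers are drawn but were left out of the means. All 10 copies of H2-K1 were lower in 1G11-SOD3 cells by their group means, whereas the B2m copies ran in opposite directions between the lines.

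The transporter subunits gave smaller differences. Tap1 was measured by 1 probe (chr17:34330854-34330913, plus strand) with 9 copies outside the middle, whose mean was 8.36, 8.88 and 9.28 in 1G11-mock and 8.37, 8.27 and 7.90 in 1G11-SOD3 cells. 1G11-mock replicate 1 lay among the 1G11-SOD3 arrays, and the log2 fold change of -0.66 (SE 0.27, adjusted p = 0.293 by limma) did not pass, although 8 of the 9 copies were lower (range -1.22 to 0.20). Without 1G11-mock replicate 3 it was -0.44 (adjusted p = 0.491). The copy in the middle was well above background on no 1G11-mock array. Its spot read at least 1.11-fold brighter on the 1G11-SOD3 arrays, which is no bound on expression. The surface from neighboring spots differed there by 1.46 on the log2 scale in the same direction. The fitted log2 fold change was 0.47 (adjusted p = 0.515), with the spot of 1G11-mock replicate 2 dropped as an outlier. With the surface taken off, it was -0.57 (adjusted p = 0.268).

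Tap2, the partner of Tap1 (chr17:34353116-34353175, plus strand), read 13.26, 12.93 and 12.43 in 1G11-mock and 12.74, 12.35 and 11.40 in 1G11-SOD3 cells. The lines overlapped, and the log2 fold change was -0.71 (SE 0.35, adjusted p = 0.388 by limma), and -0.32 (0.686) without 1G11-SOD3 replicate 3. Tapbp, the tapasin gene (chr17:34065963-34066022, plus strand), read 14.95, 15.22 and 15.21 in 1G11-mock and 14.54, 14.36 and 14.13 in 1G11-SOD3 cells. The lines did not overlap and had little spread inside each, with a log2 fold change of -0.78 (SE 0.22, adjusted p = 0.101), which did not pass.

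Of the immunoproteasome subunits, Psmb8 (chr17:34337771-34337830, plus strand) read 10.21, 10.35 and 10.001 in 1G11-mock and 10.14, 10.03 and 8.53 in 1G11-SOD3 cells. Its difference rested on 1G11-SOD3 replicate 3: the log2 fold change was -0.62 (SE 0.38, adjusted p = 0.505 by limma) with it and -0.10 without it. Psmb9 (probe A_51_P369803, chr17:34319174-34319233, minus strand) read 10.42, 10.26 and 11.05 in 1G11-mock and 10.24, 9.32 and 9.04 in 1G11-SOD3 cells. The lines were separated by a narrow margin, and the log2 fold change of -1.04 (SE 0.33, adjusted p = 0.144) did not pass. A second Psmb9 probe, A_55_P2038983, was well above background on no array and is given no fold.

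Psmb10, the remaining immunoproteasome subunit (chr8:108459677-108459736, minus strand), had its only spot in the middle. It read 13.24, 13.20 and 11.96 in 1G11-mock and 14.47, 14.34 and 13.58 in 1G11-SOD3 cells, with no overlap, as in 57.3% of the probes of the middle that were well above background on the 6 arrays. The log2 fold change of 1.34 (SE 0.36, adjusted p = 0.0827 by limma) did not pass, and it passed with the replicate number as a block (adjusted p = 0.00772). The surface from neighboring spots differed by 1.60 between the lines, and with it taken off the log2 fold change was 0.14 (adjusted p = 0.820).

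Nlrc5, the transactivator, was measured by 2 probes, both outside the middle. Its probe A_55_P2016034 (chr8:97051105-97051164, plus strand) read 9.71, 8.68 and 9.28 in 1G11-mock and 7.50, 7.62 and 6.59 in 1G11-SOD3 cells. It was well above background on all 1G11-mock arrays and on none of 1G11-SOD3, so the fold is a bound. The 1G11-mock mean was set against a mean that took, on each 1G11-SOD3 array, the higher of the spot itself and the dimmest signal well above background. On that scale Nlrc5 was at least 2.82-fold lower in 1G11-SOD3 cells, and the fitted log2 fold change was -1.99 (SE 0.33, adjusted p = 0.00874 by limma). The call held with each array left out in turn (adjusted p between 0.0128 and 0.0441) and with the surface taken off (-1.96, adjusted p = 0.00841). A second Nlrc5 probe, A_66_P113043, whose 60 bases span 147 bases of chromosome 8 and so cross an exon junction, was well above background on no array.

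**Figure D3:**
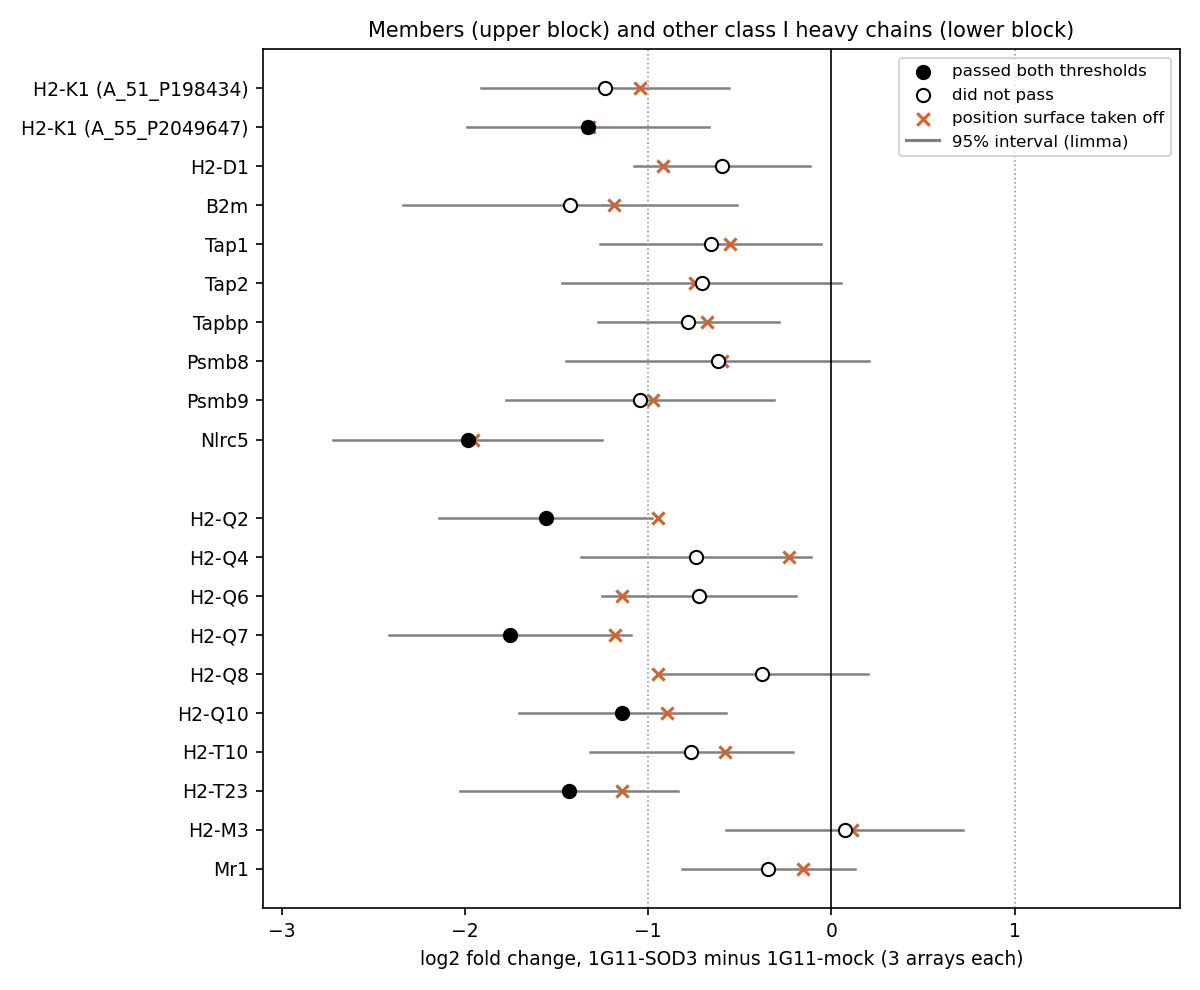
Log2 fold change (1G11-SOD3 minus 1G11-mock) of the detected members and of the other class I heavy chains well above background on all arrays, by their probes outside the middle, as circles with 95% limma intervals, filled where the call was made; crosses give the value with the position surface taken off. All member circles lie below 0 there, and among the heavy chains H2-M3 alone lies above it.

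Around the members, 69 other genes of the class I pathway were listed from general knowledge, of which 62 had a probe outside the middle and 3 had one in the middle alone. With the brightest probe outside the middle taken for each gene, 4 were called lower and 0 higher, beside 1.2% and 0.66% of all rows outside the middle, and the 62 genes had a median log2 fold change of -0.09. All 4 were heavy chains. Most of all rows outside the middle were dim, unlike these genes. With dim probes left out, 4 of 52 genes were called lower, beside 646 of 17659 rows outside the middle. H2-Q7, a Qa-2 antigen gene, read 14.66, 14.14 and 15.14 in 1G11-mock and 13.18, 13.05 and 12.45 in 1G11-SOD3 cells (log2 fold change -1.75, SE 0.30, adjusted p = 0.00949 by limma). H2-Q2 read 14.64, 14.74 and 14.90 against 13.52, 13.41 and 12.67 (-1.56, SE 0.26, adjusted p = 0.00902). H2-T23, which encodes Qa-1 and presents leader peptides of other class I chains, read 14.77, 14.43 and 14.78 against 13.63, 13.34 and 12.71 (-1.43, SE 0.27, adjusted p = 0.0162). In these genes all 1G11-SOD3 arrays were below all 1G11-mock arrays, as they also were in H2-Q10, a secreted class I chain (-1.14, SE 0.26, adjusted p = 0.0361). Of the 10 other heavy chains that were well above background on the 6 arrays, 9 were below 0, beside 64.4% of all such probes outside the middle, and the median of the 10 was -0.75. Mr1, which presents vitamin B metabolites, was at -0.34 (adjusted p = 0.517) and H2-M3, which presents formylated peptides, at 0.07 (adjusted p = 0.943). The Q-region genes are close copies of each other, and hybridization of one transcript to the probe of another was not tested. H2-Q2 and H2-Q10 each had 2 probes outside the middle, of which the brighter alone was called. The H2-Q10 call was lost whichever array was left out. The calls of the other 3 held without 1G11-mock replicate 1 or 2 and without 1G11-SOD3 replicate 1 or 2, whereas H2-Q2 and H2-Q7 were left without 1G11-mock replicate 3 and H2-Q2 alone without 1G11-SOD3 replicate 3. With the position surface taken off, the calls were H2-Q6 (-1.14, adjusted p = 0.0232), H2-Q7 (-1.18, adjusted p = 0.0344) and H2-T23 (-1.14, adjusted p = 0.0307), while H2-Q2 was at -0.95 (adjusted p = 0.0529) and H2-Q10 at -0.90 (adjusted p = 0.0566).

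Outside the middle, the lists of peptide loading and folding, proteasome, cytosolic peptidases and cross-presentation gave no call in either direction. The peptidase gene Thop1, with a probe in the middle alone, was called higher there (log2 fold change 1.91, adjusted p = 0.0298 by limma). In the middle 11.9% of all rows were called higher. Among the 9 genes of peptide loading and folding in the endoplasmic reticulum, the chaperones Calr and Canx had log2 fold changes of 0.64 (adjusted p = 0.292 by limma) and 0.51 (0.468). The tapasin-related Tapbpl was at -0.59 (0.389) and the glucosidase subunit Ganab at -0.29 (0.706). The 17 proteasome genes, all well above background, had a median of 0.07 and ran from -0.65 for Psmb4 (0.191) and -0.40 for Psmb2 (0.554) to 0.64 for Psmb1 (0.225) and 0.67 for Psmb3 (0.176), all of them subunits of the β rings. The 4 cytosolic peptidases lay between -0.43 for Tpp2 (0.468) and 0.18 for Blmh (0.813), with Lap3 at -0.10 (0.919) and Npepps at 0.08 (0.934). In the cross-presentation list the translocon subunits Sec61b and Sec61g were at 0.50 (0.440) and 0.27 (0.704), and Sec22b and Lnpep at -0.27 (0.695) and -0.07 (0.941).

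Outside the middle, the listed regulators of class I transcription gave no call either, with 0 of 11 past both thresholds. A probe of Nfyb in the middle was called higher (1.44, adjusted p = 0.0152 by limma), against 11.9% of all rows there. By its brightest probe outside the middle Nfyb was at -0.40 (adjusted p = 0.531). Irf1, an interferon regulatory factor that binds class I promoters, came closest. It read 13.33, 13.36 and 13.69 in 1G11-mock and 12.39, 12.60 and 12.55 in 1G11-SOD3 cells, so that the lines lay well apart with little spread inside each. Its log2 fold change was -0.94 (SE 0.22, adjusted p = 0.0432 by limma), under 2-fold. With the position surface taken off, it was -0.81 (adjusted p = 0.0789), short of both thresholds. Rela, the p65 subunit of NF-κB, was at -0.52 (adjusted p = 0.321) with no overlap between the lines. Rfxank and Rfxap, subunits of the RFX complex that holds Nlrc5 at class I promoters, were at 0.15 (0.856) and 0.03 (0.968).

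Class II genes, which present peptides from outside the cell, were mostly not detected on these arrays. Of 11 with a probe outside the middle, 8 were well above background on no array, among them Ciita, the class II transactivator, and the chain genes H2-Aa, H2-Ab1 and H2-Eb1. None was called. Cd74, the invariant chain, and H2-DMb1 were well above background on all arrays, with log2 fold changes of 0.28 (adjusted p = 0.686 by limma) and 0.33 (adjusted p = 0.776).

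**Figure D4:**
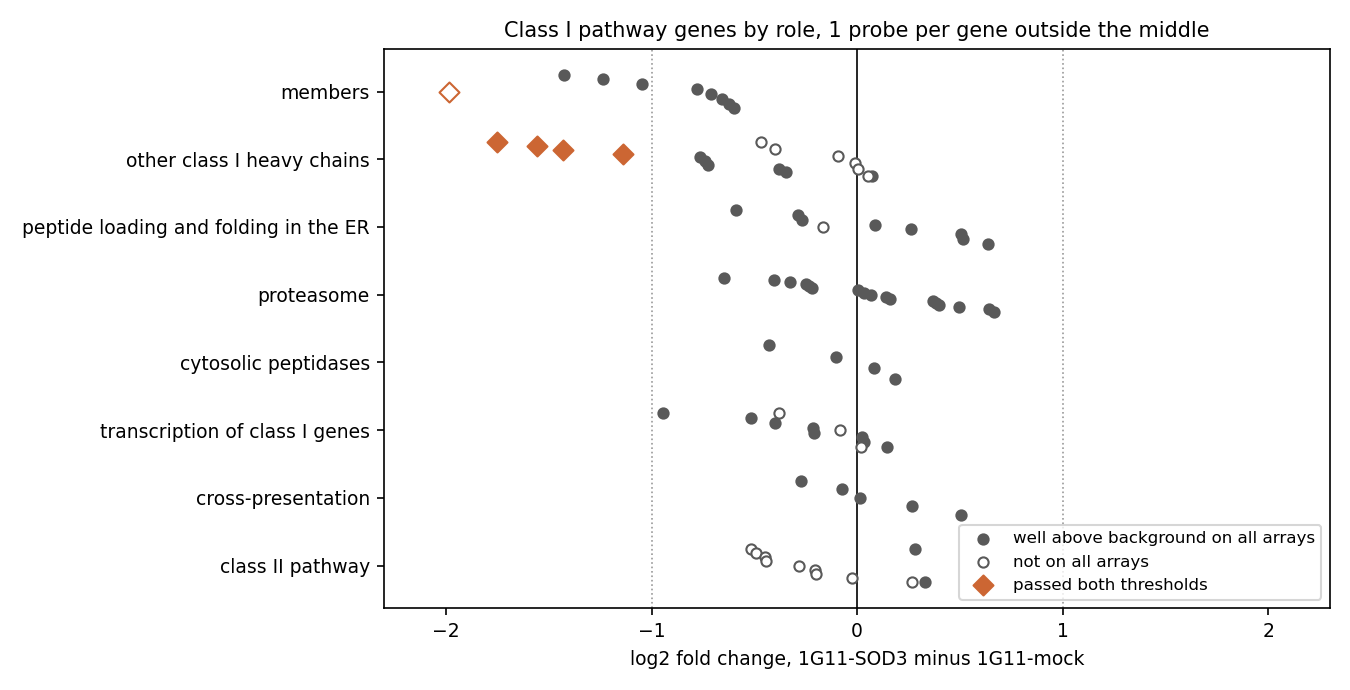
Log2 fold change (1G11-SOD3 minus 1G11-mock) of the members and the listed genes by role, 1 probe per gene outside the middle; diamonds passed both thresholds and open symbols were not well above background on all arrays. Calls lie in the members and the heavy chains, on the lower side.

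The genes with a pattern over the 6 arrays most like the mean of 8 members (1 probe each, well above background on all arrays, outside the middle) were sought among 9393 other genes. The members' centered mean was 0.52, 0.42 and 0.39 in 1G11-mock and -0.23, -0.27 and -0.83 in 1G11-SOD3 cells. Dbp, a clock-controlled transcription factor, had the highest Pearson r with it (0.998), followed by Itgb4, the integrin β4 chain (0.998), Adam15, a disintegrin metalloprotease (0.997), Zfpm1, a GATA cofactor (0.996), and Slco2a1, a prostaglandin transporter (0.995). Dbp read 15.00, 14.66 and 14.73 in 1G11-mock and 13.42, 13.28 and 12.32 in 1G11-SOD3 cells, with 1G11-SOD3 replicate 3 again lowest. These genes were chosen for their likeness, the 6 points are of 2 cell lines, and no test is attached.

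Markers of other cells were read on the same arrays, each by its brightest probe outside the middle. Of 10 leukocyte markers, 5 were well above background on no array, with the defining Ptprc among them, and 0 were called. The other 5, Itgam, Cd68, Cd14, Cd3e and Csf1r, were well above background on all 6 arrays. Itgam was the brightest, with a mean of 14.20 in 1G11-mock and 14.19 in 1G11-SOD3 cells. Their summed normalized intensity spanned 23478 to 29708 on the 1G11-mock arrays and 25578 to 29168 on the 1G11-SOD3 arrays. Of 14 endothelial markers, 8 were well above background on no array, including Cdh5, the VE-cadherin gene, while Kdr, Eng and Vwf were detected on all. Flt1 was among the 8, but its probe in the middle was well above background on 2 1G11-mock and 3 1G11-SOD3 arrays. A further listed endothelial marker, Esam, had a probe in the middle alone. It was well above background on all 6 arrays there and was not called (log2 fold change 1.22, adjusted p = 0.186 by limma). Vwf was called lower (-1.65, adjusted p = 0.00327 by limma) and Egfl7 higher (1.82, adjusted p = 0.0172), beside 1.2% and 0.66% of all rows outside the middle. With the position surface taken off, Vwf stayed called (-1.38, adjusted p = 0.0304) and Egfl7 did not (1.05, adjusted p = 0.0633). The summed endothelial intensity was 21155 to 30295 on the 1G11-mock arrays and 14885 to 17680 on the 1G11-SOD3 arrays. Of 10 mesenchymal markers, 5 were called higher (Pdgfrb, Acta2, Col1a1, Col3a1 and Lum), beside 0.66% of all rows outside the middle. Des and Rgs5 were well above background on no array. The sums of the 10 were 75898 to 77162 on the 1G11-mock arrays and 141283 to 371086 on the 1G11-SOD3 arrays. In all these sums the brightest genes weigh most, so they do not describe every marker of a set. The array of 1G11-SOD3 replicate 3, lowest in most member probes, was the highest of the 6 in Dcn (13.51, 13.59 and 17.05 on the 1G11-SOD3 arrays) and in Col3a1 (16.65, 16.60 and 17.58). Of 8 epithelial markers 0 were called, 4 of them, including Epcam, were well above background on no array, and the sums were 68783 to 113276 and 46588 to 86469. Krt19 (means of 16.48 in 1G11-mock and 15.96 in 1G11-SOD3 cells) and Erbb2 (10.51 and 10.85) were well above background on all 6 arrays. Cdh1 was so on the 3 1G11-SOD3 arrays alone. The part of the endothelial and mesenchymal differences in the class I values was not tested.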

How the data were processed

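Agilent single-color arrays measured RNA of 3 1G11-mock and 3 1G11-SOD3 samples. The authors deposited Agilent Feature Extraction 10.7.3.1 output, with mean and median spot intensity, local background intensity and a processed signal, not normalized between arrays. A further table deposited by them holds log2 values after normexp (offset of 50) and quantile normalization, with a median of 7.52 per array. It was recomputed to within 0.005 from median intensities.

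Values here started from mean intensities, with the same correction, control spots left out before quantile normalization (limma 3.58.1, R 4.3.3). Outlier spots were left out and copies averaged apart in and outside the middle. A probe counted as well above background where at least 0.5 of its copies were. The lines were compared with limma (empirical Bayes) and Benjamini-Hochberg adjustment over 55961 rows. The precision is limited by the 3 arrays per line. Gene names came from the design sequence of a probe. The position surface was a running median, over 12 rows and 6 columns to each side, of each array's deviation from the mean of the 6. Figures used Python 3.11.15 and matplotlib 3.10.9.

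No label states a pairing by replicate number, so the reported fit had no block, and a fit with the number as a block was an alternative. Same-numbered deviations correlated at 0.141, 0.144 and 0.236, other pairs at no more than 0.0509. Deviations were taken from the mean of each line, so these correlations are not independent. A pairing thus rests on the data and on the slide column, which equals the number.

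The members, the lists, and the rule for named genes were chosen with earlier results of these data known. The rule takes every member probe, the other genes called, the 2 highest and 2 lowest detected per role, the 5 genes most like the members, and Sod3. Alternatives changed the background correction, normalization, filters, averaging of copies, position, variance model, block, table and arrays. The procedure was tested on simulated data.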

Additional observations from a re-analysis of the deposited data

How the results depend on the processing

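Of the member probes outside the middle, 2 were called in the reported analysis. The count was 1, with Nlrc5 kept and H2-K1 lost, without background correction, with an offset of 16, with cyclic loess, with the middle left out, and with a variance trend, and it lay between 1 and 2 with each array left out. It was 3 under 5 settings, with the 10-copy H2-K1 probe added when dim probes were left out (adjusted p = 0.0438 by limma), outlier spots kept (0.0433) or the replicate block used, and B2m with scaling to the 75th percentile (0.0317). With processed signal the third was the Psmb9 probe A_55_P2038983 (-1.32, adjusted p = 0.0257), which was well above background on no array and stood at 0.40 in the reported analysis. In the middle 1 probe was called, 2 with scaling to the 75th percentile or the replicate block, and 0 with copies averaged together or the position surface taken off. The other pathway genes numbered 4, and between 1 and 3 with each array left out. H2-Q10 was not called without background correction, with an offset of 16, with cyclic loess, with the middle left out, with a variance trend or with the surface taken off. With processed signal H2-Q2, H2-Q7 and H2-T23 were not called. B2m outside the middle turned to a log2 fold change of 0.76 when its copies were averaged together, since that mean includes the middle copy. The Tap1 copy in the middle turned to -0.58 with copies averaged together and to -0.57 with the surface taken off. Nlrc5 was called under all 15 other settings of the processing, its log2 fold change ranging from -3.55 to -1.34. With 75th-percentile scaling the median of all rows moved from -0.03 to -0.33, and with processed signal to -0.52. Among detected probes outside the middle, the 9 members' median stood 0.80 and 1.03 below that of all such probes. The replicate block changed the calls of the 10-copy H2-K1 probe and of Psmb10 and no other call of a member or listed pathway gene. Signal over background limits Nlrc5 to a bound, and 3 arrays per line limit the rest.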
